A study of Mus musculus with 9 samples.

Results

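The enzymes that make squalene and turn it into cholesterol were examined in thymocytes of CD3ε I173A mice and of wild-type (WT) mice. They were the 10 genes Fdft1, Sqle, Lss, Cyp51, Tm7sf2, Msmo1, Nsdhl, Hsd17b7, Sc5d and Dhcr7, taken by name from the 31053 genes listed in each count matrix, and each name matched 1 gene. The I173A substitution lies in CD3ε, a signalling chain of the T cell receptor (TCR) complex, and the title of the series calls it a mutation that enhances the TCR signal. Thymus cells of adult female mice carried antibodies tagged with an oligonucleotide, hashtag 6 for I173A and hashtag 4 for WT. They were sorted into cells with CD4 alone (CD4 gate), with CD8 alone (CD8 gate) or with both (DP gate), and I173A and WT cells of a gate were sequenced in 1 single-cell RNA library that reads the 5′ ends of transcripts. The labels name no treatment and no allele besides I173A. The strain and the number of mice behind each hashtag are not given in the sources used here, so each genotype counted as 1 sample in each gate and no test between genotypes was possible. Levels are unique molecular identifiers (UMIs) of a gene scaled to the UMIs of all genes in the same cells (CPM, the usual counts-per-million scale), and a ratio is the I173A level over the WT level with its 95% interval in brackets. Intervals of levels are exact Poisson intervals, and all intervals cover counting error only, not the spread between mice.

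Cholesterol synthesis starts from acetyl-CoA and passes through mevalonate to farnesyl diphosphate. Fdft1 (squalene synthase) joins farnesyl units into squalene, Sqle (squalene epoxidase) adds an oxygen and is a known control point, and Lss folds the product into lanosterol, the earliest sterol. Cyp51 starts the removal of methyl groups from lanosterol, Tm7sf2 reduces a double bond that this step leaves, and Msmo1, Nsdhl and Hsd17b7 act together to take off the methyl groups that remain. Sc5d places a double bond in the ring, and Dhcr7 reduces another one at the end of the pathway. Most of these genes are known targets of SREBP2, a transcription factor encoded by Srebf2 that is released when membranes run short of sterol. T cells are known to raise sterol synthesis when they divide, and cholesterol in the plasma membrane is known to affect how the TCR clusters.

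The genes are spread over 10 chromosomes in RefSeq on GRCm38.p6, so none of them neighbour each other. Fdft1 lies at chr14:63145150-63181687, Sqle at chr15:59315092-59331193 and Lss at chr10:76531565-76557139. Cyp51 lies at chr5:4080674-4104697, Tm7sf2 at chr19:6062821-6067850, Msmo1 at chr8:64718123-64733578, Nsdhl at chrX:72918521-72958528 and Hsd17b7 at chr1:169949535-169969242. Sc5d lies at chr9:42251592-42264300 and Dhcr7 at chr7:143823167-143848410.

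Promoters of 4 enzymes are printed because Cyp51 and Lss were lower in I173A than in WT cells of the CD8 gate, while Sc5d and Dhcr7 were close to WT there. RefSeq windows on GRCm38.p6, from 250 bases before a start site to 50 bases after it, matched 8 of the 10 enzymes by symbol and did not list Fdft1 and Sqle. The windows are chr5:4104648-4104947 on the minus strand for Cyp51, chr10:76531355-76531654 on the plus strand for Lss, chr9:42264251-42264550 on the minus strand for Sc5d and chr7:143829964-143830263 on the plus strand for Dhcr7, which is window 3 of the 3 listed for that gene. Each is given 5′ to 3′ on the strand of the gene, and capitals mark CCAAT or its reverse complement ATTGG.
Cyp51: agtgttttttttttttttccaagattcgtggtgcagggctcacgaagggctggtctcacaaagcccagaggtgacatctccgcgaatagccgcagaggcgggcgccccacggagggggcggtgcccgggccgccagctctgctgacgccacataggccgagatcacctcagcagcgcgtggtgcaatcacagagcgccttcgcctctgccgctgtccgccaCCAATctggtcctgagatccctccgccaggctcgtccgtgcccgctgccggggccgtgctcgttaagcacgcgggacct
Lss: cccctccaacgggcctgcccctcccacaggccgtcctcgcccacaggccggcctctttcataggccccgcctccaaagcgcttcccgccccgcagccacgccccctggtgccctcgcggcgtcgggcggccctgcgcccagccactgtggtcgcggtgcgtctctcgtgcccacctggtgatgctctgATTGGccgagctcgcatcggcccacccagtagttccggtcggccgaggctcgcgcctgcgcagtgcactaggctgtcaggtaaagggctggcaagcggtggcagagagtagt
Sc5d: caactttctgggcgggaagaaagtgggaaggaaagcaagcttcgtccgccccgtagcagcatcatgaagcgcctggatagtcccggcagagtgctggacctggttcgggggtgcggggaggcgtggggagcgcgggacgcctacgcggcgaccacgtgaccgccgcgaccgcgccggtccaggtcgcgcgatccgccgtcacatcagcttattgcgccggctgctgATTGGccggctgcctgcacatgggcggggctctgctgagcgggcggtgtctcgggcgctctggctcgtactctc
Dhcr7: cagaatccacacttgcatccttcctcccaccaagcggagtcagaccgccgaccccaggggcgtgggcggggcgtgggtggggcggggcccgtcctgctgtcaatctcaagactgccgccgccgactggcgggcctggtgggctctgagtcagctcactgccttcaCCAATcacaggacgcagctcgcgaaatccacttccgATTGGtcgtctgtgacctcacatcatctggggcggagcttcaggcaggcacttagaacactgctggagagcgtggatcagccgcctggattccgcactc

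CCAAT, read on both strands, stood in a window of 8 of the 8 matched enzymes, against 41.1% of the 27025 genes in the table. Its first base in the window lay at position -29 from the start site in Cyp51, -62 in Lss, -24 in Sc5d, and -85 and -49 in window 3 of Dhcr7. The printed windows of the enzymes that were lower and of those that were not thus both held it. Windows 1 and 2 of Dhcr7 did not hold it. Msmo1 and Hsd17b7 had 3 copies each and Nsdhl had 4. GGGCGG, the letters of a GC box, was also found in 8 of 8, against 38.2% of genes. TCACNCCAC, letters of a sterol regulatory element, was found in 0 of 8 and in 1.44% of genes, and the related CACCCCAC, which can overlap it, in 0 of 8 and in 3.30% of genes. These counts describe the letters in the windows and not the binding of any factor.

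The CD4, CD8 and DP libraries held 9081, 9239 and 8670 barcodes with 60770018, 65934387 and 31269793 UMIs. After assignment by hashtag and filtering there were 2664 I173A and 3109 WT cells in the CD4 gate, 2872 and 3017 in the CD8 gate, and 2706 and 2516 in the DP gate. Median UMIs per cell were lower in I173A than in WT cells, at 5786.5 and 6079 in the CD4 gate, 5271.5 and 5704 in the CD8 gate, and 2750.5 and 2906.5 in the DP gate. A total of 338 barcodes occurred in 2 or more libraries, and they were kept. Zbtb7b, the CD4 lineage factor, reached 97.1 CPM in I173A and 108 CPM in WT cells of the CD4 gate and was at 0 and 0.133 CPM in the CD8 gate, where the cytotoxic granule gene Nkg7 had 673 and 516 CPM. Rag1, which cuts DNA in TCR rearrangement, had 1232 and 1049 CPM in the DP gate and 7.49 and 26.7 CPM in the CD8 gate, so the WT cells of the CD8 gate held more of this DP gene. Lyz2, a macrophage gene, was at 0.340 to 9.93 CPM over the 6 groups. Cd3e itself was at 1443 and 1343 CPM in the CD4 gate, and this level checks neither the substitution nor the labels.

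Cells were clustered without the sterol and fatty acid genes, and 5 clusters rich in mitosis genes were taken as cycling. Cycling cells made up 8.43% of I173A and 15.9% of WT cells in the CD8 gate (242 and 479 cells), 4.66% and 15.5% in the DP gate (126 and 389 cells), and 1.88% and 1.83% in the CD4 gate (50 and 57 cells). Clusters 10 and 20, rich in S phase genes, stayed among the noncycling cells. Cluster 10 held 156 I173A and 202 WT cells of the CD8 gate, and cluster 20 held 26 and 66 cells of the CD4 gate. In noncycling cells the summed S phase genes had a ratio of 0.839 in the CD8 gate, 0.846 in the CD4 gate and 1.01 in the DP gate. The part of this in the enzyme levels was not tested. Because the share of cycling cells differed between genotypes and cycling cells held more of several enzymes, each gate is described with cycling and noncycling cells apart. A gene was counted as higher or lower when its ratio reached 1.3-fold and its mean was at least 5 CPM, and the same rule was applied to every gene for comparison.

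In the CD8 gate the early enzymes of the branch were lower in I173A than in WT cells. The 10 enzymes together had 105 CPM in I173A cells, against 141 CPM in WT cells, a ratio of 0.743 (0.701 to 0.787). Of the 9 enzymes over the minimum, 4 were lower past 1.3-fold (Fdft1, Sqle, Lss and Cyp51) and none was higher, while 8.83% of the 9123 genes measured were lower by that fold. Their median log2 ratio was -0.32, against 0.03 for all genes measured. Sqle, Lss and Tm7sf2 reached the minimum only through the WT level, so these counts are a description. With the mean of each cell's CPM in place of the pooled level the ratio of the sum was 0.885 and no enzyme was counted: Fdft1 (0.831), Lss (0.777) and Cyp51 (0.874) missed the fold, while Sqle kept it at 0.334 and fell under the minimum. Sqle stood furthest apart, with 2.21 CPM in I173A cells, against 11.2 CPM in WT cells, a ratio of 0.197 (0.137 to 0.277). With equal cluster shares in both genotypes it was at 0.402, and Fdft1 was then at 0.798, short of the fold. Fdft1 had 17.01 CPM in I173A cells, against 25.1 CPM in WT cells, a ratio of 0.678 (0.587 to 0.781). Lss, the cyclase, had 4.20 CPM in I173A cells, against 6.70 CPM in WT cells, a ratio of 0.627 (0.468 to 0.833). For these early enzymes the I173A and WT intervals of the level lay apart.

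Among the enzymes that remove methyl groups, Cyp51 had 9.07 CPM in I173A cells, against 16.2 CPM in WT cells, a ratio of 0.560 (0.462 to 0.677). Msmo1 was nearer to WT, at 0.800 (0.676 to 0.946). Tm7sf2, Nsdhl and Hsd17b7 had ratios from 0.827 to 0.918, and each interval included 1. The last enzymes were close between genotypes, with 16.7 CPM in I173A cells, against 17.4 CPM in WT cells for Sc5d, and 24.7 CPM in I173A cells, against 27.1 CPM in WT cells for Dhcr7. Both intervals included 1, at 0.962 (0.824 to 1.12) for Sc5d and 0.910 (0.803 to 1.03) for Dhcr7. The enzymes lower past 1.3-fold were thus those of the steps from squalene synthesis to the opening of lanosterol demethylation. S phase and G2/M genes were also lower in all I173A cells of this gate, with 20 of 20 and 19 of 20 past 1.3-fold, and their part in the enzyme levels was not tested.

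**Figure D1:**
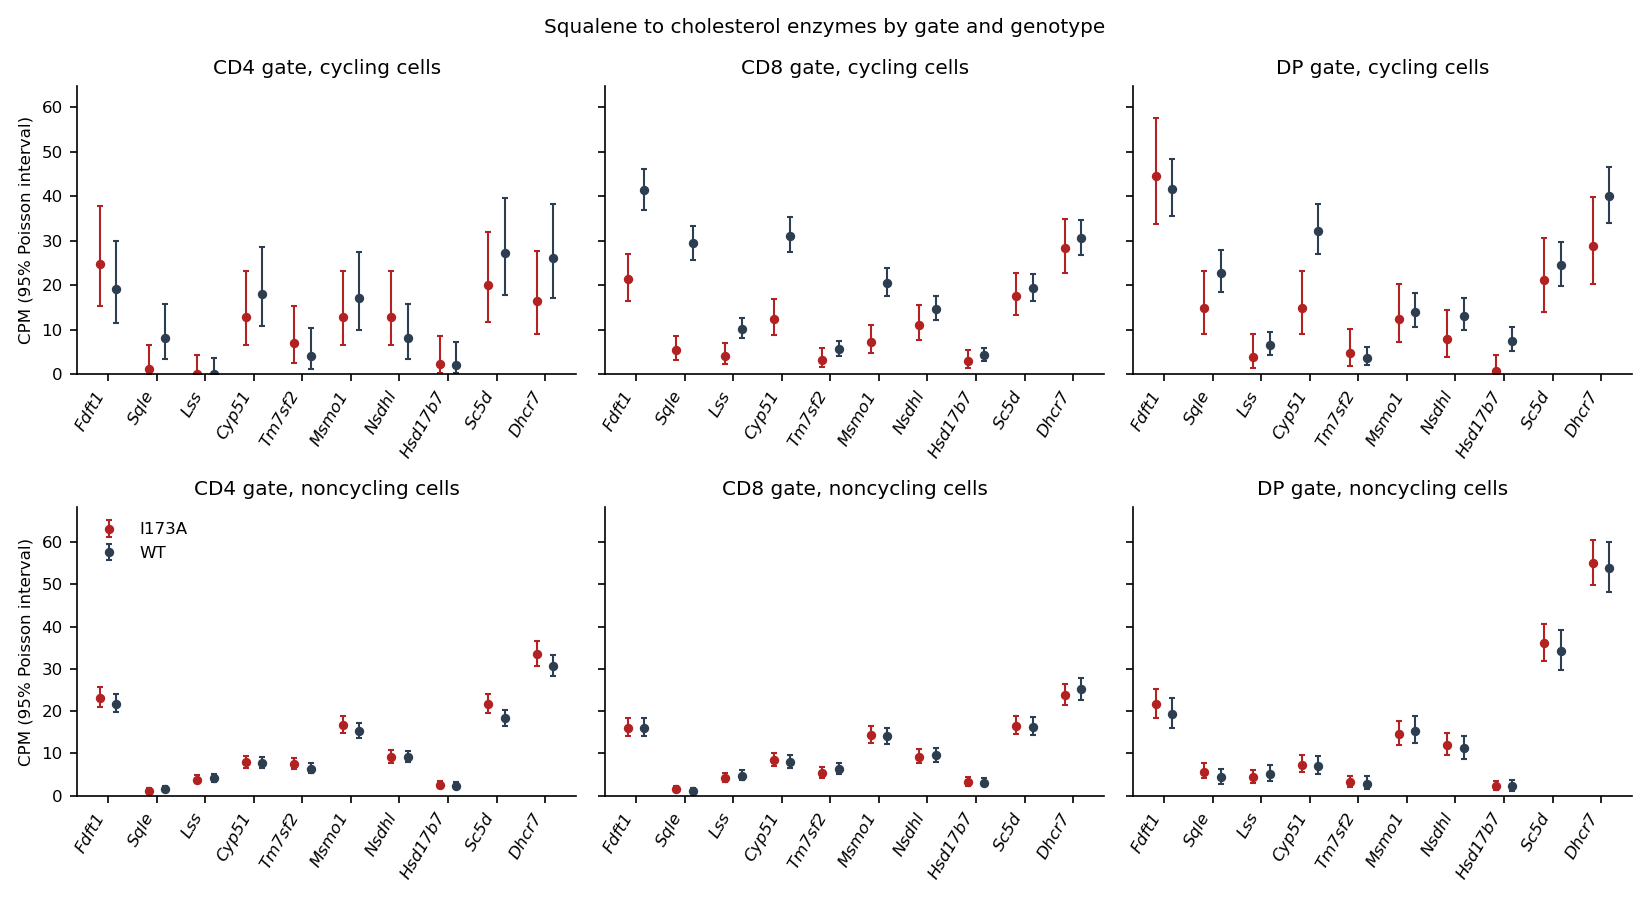
Levels of the 10 enzymes in CPM (vertical axes) for I173A (red, left of each pair) and WT cells (dark) in the CD4, CD8 and DP gates, with cycling cells in the upper panels, noncycling cells in the lower panels and bars for the 95% Poisson interval. In the CD8 gate Fdft1, Sqle, Cyp51 and Msmo1 are lower in I173A than in WT cycling cells, and the genotypes lie near each other in noncycling cells.

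In the CD8 gate the genotypes differed in the cycling cells. Their 10 enzymes had 114 CPM in I173A and 207 CPM in WT cells, a ratio of 0.549 (0.488 to 0.616). Of the 8 enzymes over the minimum, 6 were lower past 1.3-fold (Fdft1, Sqle, Lss, Cyp51, Msmo1 and Nsdhl), while 12.4% of the 8936 genes measured were lower. Lss reached the minimum only through the WT level. The median log2 ratio of the 8 was -1.13, against 0.01 for all genes. Sqle had 17 UMIs in I173A and 236 UMIs in WT cycling cells, or 5.41 CPM in I173A cells, against 29.4 CPM in WT cells, a ratio of 0.184 (0.105 to 0.301). Msmo1, a methyl sterol oxidase, had 7.32 CPM in I173A cells, against 20.5 CPM in WT cells, a ratio of 0.356 (0.220 to 0.553). Cyp51 had 12.4 CPM in I173A cells, against 31.1 CPM in WT cells, a ratio of 0.399 (0.277 to 0.561). The ratio was 0.405 (0.207 to 0.732) for Lss, 0.516 (0.391 to 0.673) for Fdft1 and 0.758 (0.504 to 1.11) for Nsdhl, the last with an interval that included 1. Sc5d and Dhcr7 were near WT here too, at 0.907 (0.654 to 1.24) and 0.929 (0.720 to 1.19), but by the mean of each cell's CPM Dhcr7 was at 1.31 and so higher in I173A. Other lists moved with the genotype in these cells: the 7 markers of rearranging DP cells summed to 750.1 CPM in I173A and 1325 CPM in WT, and the 9 markers of CD8 single-positive cells to 3045 and 2088 CPM, with every marker of both lists detected. The summed S phase genes had a ratio of 0.798 and the summed G2/M genes of 1.16. The part of these lists in the enzyme levels was not tested.

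Noncycling cells of the CD8 gate had nearly the same enzyme levels in both genotypes. The sum was 103 CPM in I173A and 104 CPM in WT cells, a ratio of 0.985 (0.916 to 1.06), and 0 of the 7 enzymes over the minimum passed 1.3-fold in either direction, beside 4.21% of all genes measured. Fdft1 had 16.1 CPM in I173A cells, against 16.1 CPM in WT cells, and Cyp51 had 8.35 CPM in I173A cells, against 7.92 CPM in WT cells. Dhcr7 had 23.9 CPM in I173A cells, against 25.2 CPM in WT cells. Sqle was low in both, with 1.52 CPM in I173A cells, against 1.17 CPM in WT cells. Lss, at 0.885 (0.617 to 1.27), and Hsd17b7, at 1.07 (0.694 to 1.65), were also under the minimum. The share of an enzyme's UMIs found in cycling cells therefore differed widely. Cycling cells held 43.6% of Sqle UMIs in I173A and 93.3% in WT, 24.4% and 68.5% of Cyp51 UMIs, and 22.3% and 58.7% of Fdft1 UMIs, against 17.8% and 35.6% of the UMIs of all genes. Counted per cell, a cycling cell of the CD8 gate carried 1.48 UMIs of the 10 enzymes in I173A and 3.47 in WT, and a noncycling cell 0.567 and 0.597.

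**Figure D2:**
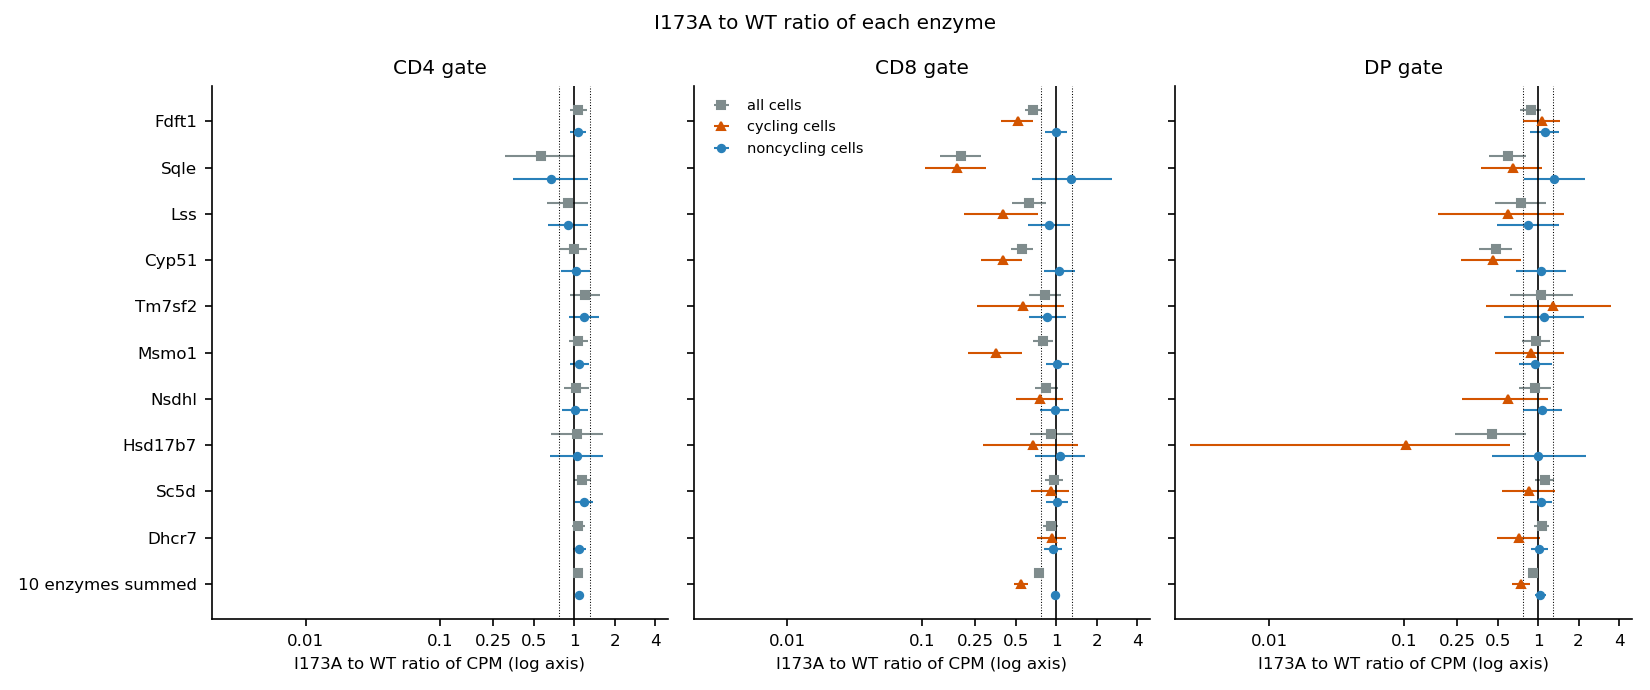
I173A to WT ratio of each enzyme and of their sum on a log axis, by gate and cell set, with bars for the 95% counting interval, a solid line at 1 and dotted lines at 1.3-fold; cycling cells of the CD4 gate are not drawn. In cycling cells of the CD8 gate Sqle, Msmo1, Cyp51, Lss and Fdft1 lie below the lower dotted line, and in noncycling cells of every gate the sum lies close to 1.

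The cycling cells of the CD8 gate fell into clusters of different kinds, and this split was chosen after the data were seen. Clusters 9, 13 and 15 carried markers of rearranging DP cells, and clusters 11 and 19, led by Mxd3 and Cenpa, did not. Hist1h1a led cluster 9 and Mki67 cluster 15, while cluster 13 was led by the granzyme gene Gzma ahead of the replication gene Cdc6, with Gpr25 and the TCR delta gene Trdc next. As background, a gate on CD8 without CD4 also takes in immature cells on their way to the DP stage. The clusters with DP markers held 80 of the 242 I173A and 315 of the 479 WT cycling cells, or 2.79% and 10.4% of the gate. The clusters without them held 162 and 164 cells, or 5.64% and 5.44% of the gate. Most I173A cycling cells therefore came from clusters 11 and 19 and most WT cycling cells from clusters 9 and 13. The 7 rearranging DP markers summed to 1799.6 CPM in I173A and 1753 CPM in WT cells of clusters 9, 13 and 15, with 7 of 7 detected in each. In clusters 11 and 19 they summed to 66.8 and 63.9 CPM, with Rag1 and Rag2 at 0 in I173A and Rag2 at 0 in WT. Klf2, a factor of mature T cells, had 18.6 and 9.67 CPM in clusters 9, 13 and 15 and 951 and 933 CPM in clusters 11 and 19.

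In clusters 9, 13 and 15 the enzymes were lower in I173A cells. The sum was 118 CPM in I173A and 242 CPM in WT cells, a ratio of 0.488 (0.409 to 0.579), and 6 of the 8 enzymes over the minimum were lower past 1.3-fold, beside 9.43% of all genes measured; Lss reached the minimum only through the WT level. Msmo1 had 6.46 CPM in I173A cells, against 24.7 CPM in WT cells, a ratio of 0.262 (0.111 to 0.529). Lss had 4.04 CPM in I173A cells, against 12.2 CPM in WT cells, a ratio of 0.332 (0.105 to 0.810). Sqle had 12.9 CPM in I173A cells, against 38.4 CPM in WT cells, a ratio of 0.337 (0.189 to 0.559). Cyp51 followed at 0.389 (0.226 to 0.629), Fdft1 at 0.449 (0.291 to 0.667) and Nsdhl at 0.532 (0.258 to 0.994). Dhcr7 again lay near WT, with 29.1 CPM in I173A cells, against 31.5 CPM in WT cells. The 2 largest of these clusters gave similar ratios of the sum, 0.424 (0.331 to 0.536) in cluster 9 with 39 I173A and 209 WT cells, and 0.491 (0.363 to 0.653) in cluster 13 with 32 and 93 cells. S phase genes were lower in the same I173A cells, with a ratio of their sum of 0.856, and median UMIs per cell were 15996.5 in I173A and 18985 in WT; the part of either in the enzyme levels was not tested.

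In clusters 11 and 19 the enzymes were close between genotypes. The sum was 111 CPM in I173A and 105 CPM in WT cells, a ratio of 1.06 (0.872 to 1.29), and it was 1.08 (0.873 to 1.34) in cluster 11 and 0.994 (0.609 to 1.63) in cluster 19 taken alone. Of the 6 enzymes over the minimum, 1 passed 1.3-fold, Nsdhl, which was higher in I173A with 12.6 CPM in I173A cells, against 8.84 CPM in WT cells, a ratio of 1.43 (0.742 to 2.79), while 23.0% of all genes measured passed it in either direction among these few cells. Fdft1 had 21.03 CPM in I173A cells, against 20.1 CPM in WT cells, and Dhcr7 had 27.9 CPM in I173A cells, against 27.5 CPM in WT cells. Cyp51 had a ratio of 0.864 (0.462 to 1.60). Sqle was rare here, with 1 UMI in I173A and 6 UMIs in WT cells. The level of the sum in these dividing cells was near that of noncycling cells of the same gate, 103 CPM in I173A and 104 CPM in WT.

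**Figure D3:**
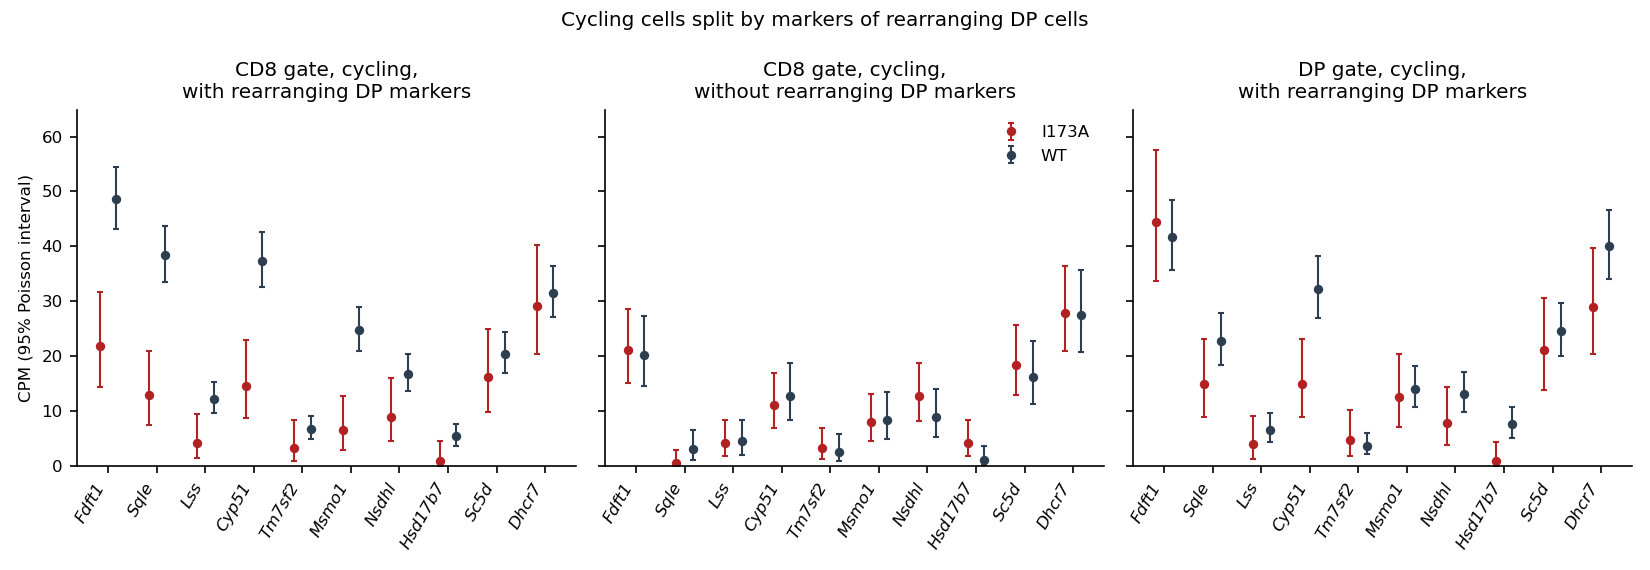
Levels in CPM of the 10 enzymes in cycling cells of the CD8 gate, split into clusters with markers of rearranging DP cells (9, 13 and 15, left) and clusters without them (11 and 19, middle), and in cycling cells of the DP gate (right), for I173A (red, left of each pair) and WT cells (dark) with 95% Poisson intervals. In the CD8 gate the genotypes lie apart for Fdft1, Sqle, Cyp51 and Msmo1 in the clusters with these markers and near each other in the clusters without them.

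In the DP gate Sqle and Cyp51 were lower in I173A than in WT cells, and Lss was lower past 1.3-fold with an interval that included 1. The sum was 161 CPM in I173A and 176 CPM in WT cells, a ratio of 0.914 (0.851 to 0.980). Of the 8 enzymes over the minimum, these 3 were lower past 1.3-fold and none was higher, beside 8.76% of all genes that were lower. Lss, with 37 UMIs in I173A and 58 UMIs in WT cells, was at 0.745 (0.480 to 1.15) and reached the minimum only through the WT level. With equal cluster shares in both genotypes 1 enzyme passed, Cyp51 at 0.704, with Sqle at 0.853 and Fdft1 at 1.15; Lss kept the fold at 0.744 under the minimum. Cyp51 had 8.43 CPM in I173A cells, against 17.3 CPM in WT cells, a ratio of 0.487 (0.366 to 0.644). Sqle had 7.04 CPM in I173A cells, against 11.9 CPM in WT cells, a ratio of 0.594 (0.429 to 0.815). Fdft1 was nearer to WT than in the CD8 gate, at 0.881 (0.735 to 1.05), and a test of that difference was not possible. Hsd17b7, under the minimum, had 1.96 CPM in I173A cells, against 4.35 CPM in WT cells, a ratio of 0.452 (0.242 to 0.806). Sc5d and Dhcr7 were at 1.12 (0.950 to 1.32) and 1.06 (0.931 to 1.21), with intervals that included 1. S phase and G2/M genes were lower in I173A cells past 1.3-fold in 20 of 20 each, and their part in these levels was not tested.

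In the DP gate too, the genotypes differed in cycling cells and were close in noncycling cells. In cycling cells the sum was 154 CPM in I173A and 206 CPM in WT, a ratio of 0.746 (0.636 to 0.872). Of 8 enzymes over the minimum, 5 were lower past 1.3-fold (Sqle, Lss, Cyp51, Nsdhl and Dhcr7), beside 12.4% of all genes, with Lss over the minimum only through WT. Cyp51 had 14.8 CPM in I173A cells, against 32.2 CPM in WT cells, a ratio of 0.460 (0.269 to 0.747), and it was the only one of the 5 whose interval left out 1. Sqle was at 0.651 (0.375 to 1.07), Dhcr7 at 0.722 (0.491 to 1.04) and Nsdhl at 0.596 (0.271 to 1.18). Hsd17b7, which was under the minimum, had 1 UMI in I173A and 31 UMIs in WT cells. Fdft1 was level, with 44.5 CPM in I173A cells, against 41.7 CPM in WT cells. In noncycling cells the sum was 162 CPM in I173A and 156 CPM in WT, a ratio of 1.04 (0.956 to 1.14). There 1 of 7 enzymes passed 1.3-fold, Sqle, which was higher in I173A at 1.31 (0.786 to 2.23), beside 9.05% of all genes in either direction, and it missed the call under 8 of the alternative settings; it reached the minimum only through the I173A level. Cyp51 had 7.32 CPM in I173A cells, against 7.01 CPM in WT cells, and Dhcr7 had 55.0 CPM in I173A cells, against 53.9 CPM in WT cells.

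All cycling cells of the DP gate belonged to clusters 9, 13 and 15, in which 66, 34 and 26 I173A cells stood beside 200, 82 and 107 WT cells. The ratio of the sum was 0.795 (0.647 to 0.971) in cluster 9, 0.658 (0.457 to 0.928) in cluster 13 and 0.921 (0.616 to 1.34) in cluster 15. Cluster 15 had the highest enzyme levels of these clusters, 392 CPM in I173A and 426 CPM in WT, and also their highest median mitochondrial share, 5.02%. In it Cyp51 had 83.2 CPM in I173A cells, against 125 CPM in WT cells, a ratio of 0.664 (0.255 to 1.46). Fdft1 had 131 CPM in I173A cells, against 52.4 CPM in WT cells, a ratio of 2.50 (1.10 to 5.33). With only 26 I173A cells, these values rest on 7 and 55 UMIs of Cyp51 and 11 and 23 UMIs of Fdft1 in I173A and WT cells. Without cluster 15 and the low-UMI cluster 7, the ratio in cycling cells was 0.762 (0.638 to 0.905) for the sum, 0.474 (0.235 to 0.875) for Cyp51 and 0.803 (0.450 to 1.37) for Sqle. In all cells of the gate it was then 0.961 (0.891 to 1.04) for the sum and 0.578 (0.411 to 0.807) for Cyp51, so the Cyp51 value did not rest on those clusters, while the interval of the sum came to include 1.

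In the CD4 gate the enzymes were close between genotypes, with a sum slightly higher in I173A cells. The sum was 126 CPM in I173A and 118 CPM in WT cells, a ratio of 1.07 (1.01 to 1.13). None of the 7 enzymes over the minimum passed 1.3-fold, beside 4.66% of all genes in either direction, and none did among noncycling cells, beside 4.82%. Sc5d had 21.6 CPM in I173A cells, against 18.8 CPM in WT cells, a ratio of 1.15 (0.992 to 1.33), and Tm7sf2 was at 1.20 (0.928 to 1.54). Fdft1 had 23.3 CPM in I173A cells, against 21.7 CPM in WT cells, and Dhcr7 had 32.7 CPM in I173A cells, against 30.5 CPM in WT cells. Sqle was low in both, with 1.07 CPM in I173A cells, against 1.90 CPM in WT cells, a ratio of 0.565 (0.304 to 1.01). In noncycling cells, nearly the whole gate, the ratio of the sum was 1.08 (1.02 to 1.15) and that of Sc5d 1.18 (1.01 to 1.37). The 50 I173A and 57 WT cycling cells of the CD4 gate gave 111 and 129.8 CPM for the sum, a ratio of 0.853 (0.647 to 1.12). Sqle had 1 and 8 UMIs there and Lss 0 and 0, too few to describe them enzyme by enzyme.

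In the CD8 and DP gates cycling cells, with their clusters pooled, held more Fdft1, Sqle and Cyp51 than noncycling cells of the same gate and genotype. Lss was higher past 1.3-fold in WT cells of the CD8 gate alone. In these WT cells of the CD8 gate Sqle had 29.4 CPM in cycling cells, against 1.17 CPM in noncycling cells, a cycling to noncycling ratio of 25.1 (15.3 to 43.8). Cyp51 had 31.1 CPM in cycling cells, against 7.92 CPM in noncycling cells, a ratio of 3.93 (3.14 to 4.94). Fdft1 was at 2.56 (2.16 to 3.04), Lss at 2.15 (1.54 to 3.00), Nsdhl at 1.55 (1.20 to 1.99) and Msmo1 at 1.46 (1.18 to 1.80). These 6 of 9 enzymes over the minimum were higher past 1.3-fold in cycling cells, beside 28.8% of all genes, with Sqle and Lss over the minimum only through the cycling cells. Tm7sf2 did not follow, at 0.894 (0.611 to 1.29), and Dhcr7 was at 1.21 (1.02 to 1.43). In I173A cells of the same gate the ratios were 3.57 (1.78 to 7.03) for Sqle, 1.49 (1.01 to 2.15) for Cyp51 and 1.33 (0.996 to 1.75) for Fdft1, and Msmo1 was lower in cycling cells, at 0.510 (0.316 to 0.787). The sum over the 10 enzymes had a cycling to noncycling ratio of 1.11 (0.982 to 1.24) in I173A and 1.98 (1.85 to 2.13) in WT cells of the CD8 gate. The clusters that hold most cycling cells differed between the genotypes, as given above, and in WT most carried markers of rearranging DP cells. In WT cells of the cycling clusters without these markers the sum was 105 CPM, against 104 CPM in noncycling cells. Sqle had 2.95 CPM there from 6 UMIs, Cyp51 12.8 CPM and Fdft1 20.1 CPM, beside 1.17, 7.92 and 16.1 CPM in noncycling cells. The WT ratios thus also compare cells of different kinds, and the part of division in them was not tested.

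In the DP gate the cycling cells of both genotypes were higher in Sqle, Cyp51 and Fdft1 and lower in Sc5d and Dhcr7. In WT cells the cycling to noncycling ratio was 5.25 (3.37 to 8.44) for Sqle, 4.59 (3.23 to 6.66) for Cyp51 and 2.15 (1.69 to 2.75) for Fdft1, which were the 3 of 8 enzymes higher past 1.3-fold, beside 20.4% of all genes, with Sqle over the minimum only through the cycling cells. Lss was at 0.899 (0.273 to 2.32) in I173A and at 1.26 (0.726 to 2.19) in WT cells. Hsd17b7, under the minimum, was at 3.46 (1.76 to 7.20). Sc5d had 24.5 CPM in cycling cells, against 34.2 CPM in noncycling cells, a ratio of 0.715 (0.558 to 0.911), and Dhcr7 had 40.0 CPM in cycling cells, against 53.9 CPM in noncycling cells, a ratio of 0.741 (0.611 to 0.897). In I173A cells Sqle was at 2.60 (1.43 to 4.57), Fdft1 at 2.05 (1.49 to 2.79), Cyp51 at 2.02 (1.13 to 3.47), Sc5d at 0.584 (0.378 to 0.869) and Dhcr7 at 0.524 (0.364 to 0.735). The sum, which adds enzymes that were higher to enzymes that were lower, was at 0.948 (0.811 to 1.10) in I173A and 1.32 (1.20 to 1.45) in WT cells. Cycling cells held 31.1% of Sqle UMIs in I173A and 78.3% in WT cells of the gate, against 14.8% and 40.8% of the UMIs of all genes. In the CD4 gate, WT cycling cells were higher in Cyp51, at 2.34 (1.35 to 3.83), while the sum was at 1.10 (0.916 to 1.32).

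Among noncycling cells the last enzymes were lower in the single-positive gates than in the DP gate, in both genotypes. In WT cells Dhcr7 had 30.7 CPM in the CD4 gate, against 53.9 CPM in the DP gate, and the CD4 to DP ratio was 0.610 (0.535 to 0.695) in I173A and 0.569 (0.497 to 0.654) in WT cells. In the CD8 gate WT cells had 25.2 CPM of Dhcr7, and the CD8 to DP ratio was 0.434 (0.375 to 0.502) in I173A and 0.468 (0.402 to 0.545) in WT cells. Sc5d followed, with a CD4 to DP ratio of 0.601 (0.511 to 0.708) in I173A and 0.537 (0.451 to 0.641) in WT cells, and a CD8 to DP ratio of 0.459 (0.384 to 0.549) in I173A and 0.477 (0.394 to 0.578) in WT cells. In CD4 over DP, 3 of 7 enzymes over the minimum were lower past 1.3-fold in I173A cells (Nsdhl, Sc5d and Dhcr7), beside 44.0% of all genes, and 2 of 6 in WT cells (Sc5d and Dhcr7), beside 46.5%. In CD8 over DP, 4 of 6 were lower in I173A cells (Fdft1, Nsdhl, Sc5d and Dhcr7), beside 56.2% of all genes, and 2 of 6 in WT cells (Sc5d and Dhcr7), beside 56.3%. These counts lay near or below the shares of all genes, so a lower level in the single-positive gates was not particular to these enzymes. Tm7sf2, a sterol reductase, went the other way, with a CD4 to DP ratio of 2.42 (1.54 to 3.96) in I173A and 2.25 (1.35 to 3.99) in WT cells. Tm7sf2 was over the minimum in I173A cells only, through the CD4 gate. Sqle was under the minimum in these comparisons, with a CD4 to DP ratio of 0.188 (0.1001 to 0.337) in I173A and 0.366 (0.210 to 0.641) in WT cells. Cyp51 was level, at a CD8 to DP ratio of 1.14 (0.821 to 1.60) in I173A and 1.13 (0.787 to 1.65) in WT cells. The sum had a CD4 to DP ratio of 0.784 (0.730 to 0.843) in I173A and 0.756 (0.701 to 0.817) in WT cells, and a CD8 to DP ratio of 0.634 (0.587 to 0.685) in I173A and 0.671 (0.618 to 0.729) in WT cells, which puts the noncycling gates in the order DP, CD4 and CD8 from high to low in both genotypes. The CD4 to CD8 ratio of the sum was 1.24 (1.16 to 1.32) in I173A and 1.13 (1.06 to 1.20) in WT cells, so each neighbour in that order differed by more than the counting error. The order is that of the sum and not of each enzyme. The CD4 to DP ratio in I173A and WT cells was 1.07 and 1.13 for Fdft1, 1.08 and 1.10 for Cyp51, and 1.15 and 1.00 for Msmo1. It was 1.13 and 1.08 for Hsd17b7, 0.869 and 0.811 for Lss, and 0.766 and 0.819 for Nsdhl. All these intervals included 1. The gates are separate libraries with different median UMIs per cell, and the part of this in their ratios was not tested.

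Within the CD4 gate the summed enzymes were lower in the Ly6c1-high cluster 1, rich in the egress receptor gene S1pr1, than in the Ckb-high cluster 4. The sum was at a cluster 1 to cluster 4 ratio of 0.681 (0.609 to 0.761) in I173A and 0.784 (0.707 to 0.870) in WT cells. Fdft1 and Dhcr7 were lower there as well, at 0.575 and 0.598 in I173A and 0.614 and 0.713 in WT cells. Other enzymes did not follow in both genotypes. Sc5d was at 0.830 (0.633 to 1.09) in I173A and 1.25 (0.938 to 1.68) in WT cells. Lss was at 0.463 and 1.06, and Cyp51 at 0.914 and 0.920. Between genotypes, cluster 1 had 100.3 CPM in I173A cells, against 99.7 CPM in WT cells, and cluster 4 had 147 CPM in I173A cells, against 127 CPM in WT cells, a ratio of 1.16 (1.04 to 1.29). Sc5d in cluster 4 had 23.3 CPM in I173A cells, against 14.03 CPM in WT cells, a ratio of 1.66 (1.22 to 2.26). The signalled-like cluster 6 of the CD4 gate, led by Egr2, was level, with 141 CPM in I173A cells, against 137 CPM in WT cells. The agonist-selected-like cluster 8 had 147 CPM in I173A cells, against 126 CPM in WT cells, a ratio of 1.17 (0.962 to 1.43), and its Cyp51 had 17.9 CPM in I173A cells, against 13.8 CPM in WT cells.

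In the CD8 gate the Klrd1-high cluster 0 had 91.5 CPM in I173A cells, against 97.4 CPM in WT cells, and the Adgrg5-high cluster 3 had 106 CPM in I173A cells, against 107 CPM in WT cells. The signalled-like cluster 14 of this gate had 109 CPM in I173A cells, against 80.2 CPM in WT cells. Its ratio was 1.36 (0.918 to 2.05), from 74 and 41 UMIs. Cluster 10, which was rich in S phase genes and stayed unnamed, had 129 CPM in I173A cells, against 119 CPM in WT cells. Sqle in it had only 0.658 and 1.57 CPM. Over all its cells the G2/M genes summed to 417 CPM, against 79.8 CPM in cluster 0 and 8100 CPM in cluster 9. Cells of this gate with S phase genes were thus not all high in these enzymes. Among clusters with at least 50 WT cells of the gate, the highest WT levels were those of clusters 9 and 13, at 240.2 and 238 CPM. In the DP gate the Smoc1-high cluster 2 had 172 CPM in I173A cells, against 164 CPM in WT cells, and the Insl5-high cluster 5 had 147 CPM in I173A cells, against 139 CPM in WT cells. DP cells of a signalled-like kind, taken from a clustering that kept the sterol genes, numbered 241 in I173A and 124 in WT and had 166 CPM in I173A cells, against 142 CPM in WT cells, a ratio of 1.17 (0.856 to 1.61).

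**Figure D4:**
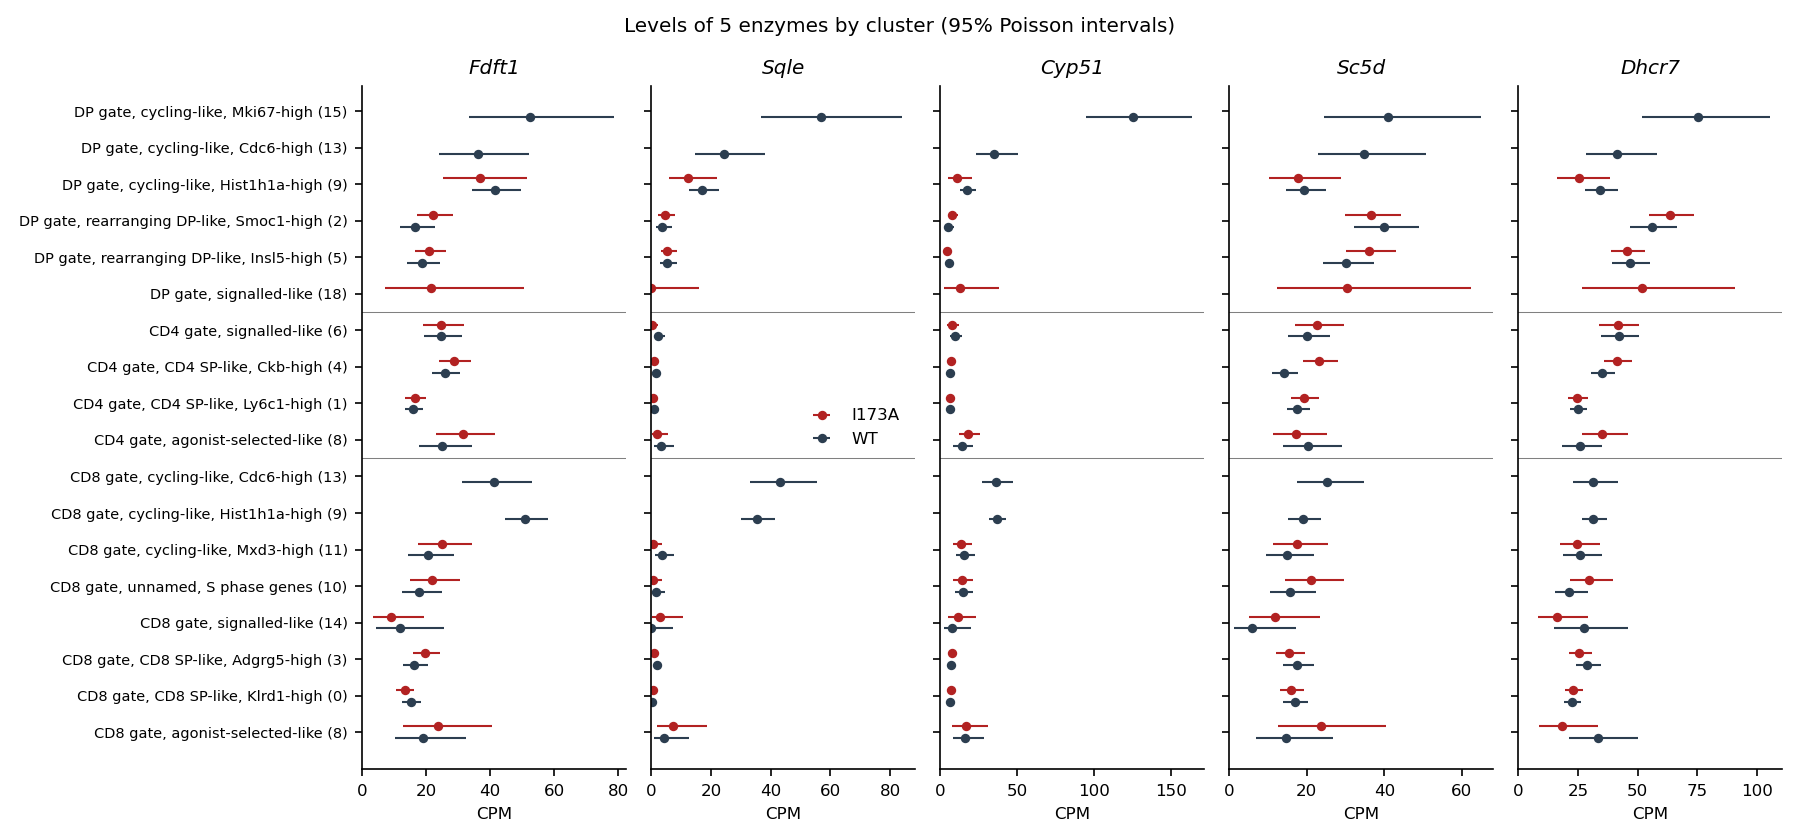
Levels in CPM of Fdft1, Sqle, Cyp51, Sc5d and Dhcr7 by gate and cluster (cluster number in brackets), for I173A (red, upper of each pair) and WT cells (dark) with 95% Poisson intervals; groups under 50 cells and clusters 7, 12, 16 and 20 are not drawn. WT cells of the cycling clusters 9 and 13 of the CD8 gate and of cluster 15 of the DP gate stand highest for Sqle and Cyp51, reaching 57.0 CPM of Sqle and 125 CPM of Cyp51 in cluster 15, while Sc5d and Dhcr7 have higher point values in clusters 2 and 5 of the DP gate than in the clusters drawn for the CD4 and CD8 gates, with intervals for Dhcr7 in cluster 5 that overlap those of clusters 4 and 6 of the CD4 gate. Cluster 16 of the CD4 gate, which is not drawn, had 41.8 CPM of Sc5d in I173A cells and 33.3 CPM in WT cells.

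Genes before and beside the branch were compared in the same cells. In cycling cells of the CD8 gate, 6 of 9 genes of the mevalonate part were lower in I173A past 1.3-fold and 1, Mvk, was higher, while 12.4% of all genes measured there were lower and 17.9% higher by that fold. Fdps, which makes the farnesyl diphosphate that Fdft1 uses, had 47.8 CPM in I173A cells, against 149 CPM in WT cells, a ratio of 0.320 (0.268 to 0.379). Idi1, an isomerase that supplies Fdps, was at 0.348 (0.274 to 0.439). The sum of the 9 genes was at a ratio of 0.520, near that of the 10 enzymes, and at 0.512 in clusters 9, 13 and 15 and 1.05 in clusters 11 and 19. Ebp and Lbr, late enzymes outside the list of 10, were at 1.22 (1.02 to 1.45) and 0.992 (0.911 to 1.08). Ebp and Lbr, like Sc5d and Dhcr7, were thus nearer to WT than Fdps and Idi1.

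Of 16 genes of sterol sensing, uptake and efflux measured in cycling cells of the CD8 gate, 5 were lower and 5 higher in I173A past 1.3-fold, beside the same 12.4% and 17.9% of all genes. Insig1, a target and brake of SREBP2, was at 0.207 (0.121 to 0.335), and Srebf2 itself was at 0.624 (0.505 to 0.767). Abca1, a cholesterol exporter, was higher in I173A, with 7.32 CPM in I173A cells, against 2.86 CPM in WT cells, a ratio of 2.56 (1.37 to 4.77). It reached the minimum only through the I173A level. Mylip, a ubiquitin ligase, was at 1.95 (1.51 to 2.50). Abca1 and Mylip are known targets of the liver X receptors, which respond to sterol excess, and the activity of these receptors was not tested. Summed over the 17 genes listed, the ratio was 1.06 in these cycling cells. It was 0.961 in the clusters with rearranging DP markers and 1.04 in those without them. Of 11 fatty acid synthesis genes, 5 were lower and 1, Elovl1, was higher, beside those shares; Fads2, a desaturase, was at 0.402 (0.226 to 0.675) and Acsl3 at 0.471 (0.351 to 0.621).

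In cycling cells of the DP gate, 4 of 8 mevalonate genes were lower past 1.3-fold and 0 were higher, beside 12.4% and 9.55% of all genes, with Fdps at 0.577 (0.440 to 0.745). Insig1 was level there at 0.999 (0.682 to 1.43). In noncycling cells Fdps was nearer to WT, at 0.849 (0.749 to 0.961) in the CD8 gate and 1.02 (0.887 to 1.18) in the DP gate.

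Across 39 groups of gate, genotype and cluster, and among 6973 genes, the genes whose log2(CPM + 1) was most like that of the summed enzymes by Pearson correlation included Ints1 (0.860), Dhx9 (0.853), Pnn (0.851), Tardbp (0.846), Srsf1 (0.846), Eif4h (0.844) and Nt5c2 (0.836). Srebf2 was at 0.828 and Hmgcs1 at 0.710. The enzymes did not all vary together: Fdft1 and Lss correlated at 0.636, Sqle and Cyp51 at 0.610, and Sc5d and Dhcr7 at 0.506, while Tm7sf2 and Dhcr7 were at -0.451, the lowest of the pairs. The groups share libraries and differ in depth, so these values describe the 39 groups.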

How the data were processed

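Single-cell RNA was measured in 3 libraries (CD4, CD8 and DP gates), with hashtag counts in the same matrices. The authors deposited whole-number UMI counts per gene and barcode, with no normalization, from Cell Ranger 6.0.1 and the GRCm38 (mm10) build, both named in the submitters' processing notes, although per the file headers the software version was 3.1.0. No deposited barcode had fewer than 502 UMIs. The other deposited columns used are text, namely gene names and barcodes, which the authors gave with each matrix. The 3 TCR libraries were not used here.

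Hashtags were assigned where one had 10 or more counts and 4 or more times those of each other hashtag. Barcodes with several hashtags (4.24%, 5.48% and 6.27% in the CD4, CD8 and DP libraries) were left out as doublets. No doublet caller was run, so doublets within a genotype stay. Hashtag 5, which has no genotype in the labels, entered no comparison between genotypes. Cells under 500 genes or over 10% mitochondrial UMIs were dropped, which left 25223 with hashtag 5 included.

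Clustering of these cells used Scanpy 1.11.5 with leidenalg 0.10.2 (resolution 1, 15 neighbours, 30 components) on 2000 variable genes after scaling to 10000 UMIs; TCR, immunoglobulin, sterol and fatty acid genes did not enter. This gave 23 clusters, and their names were rebuilt from marker lists and are not the study's own. UMIs were summed per gate, genotype and cell set. CPM carry exact Poisson intervals and ratios exact conditional intervals for counts, computed with SciPy 1.17.1. The ratio intervals and fold calls were run on simulated Poisson counts drawn from the WT levels. Because these counts follow the model of the intervals, the run checks the code alone. Hashtag assignment, clustering and the split of cycling cells were not simulated. Transcripts were tagged at their 5′ ends, so levels are compared between cells and not between genes.

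The 10 enzymes are named in every comparison. Of the other lists, counts are given with the late enzymes Lbr and Ebp and with up to 2 genes of highest and 2 of lowest ratio in each list, and the 8 genes most like the sum; some genes that these rules name are not reported here. Srebf2 and Hmgcs1, and Insig1 and Fdps outside cycling cells of the CD8 gate, were named after their values were seen. The enzymes and lists were chosen with earlier results of these data known. Alternatives were another fold, TMM (edgeR 4.0.16) and median-of-ratios scaling, no minimum level, stricter hashtag and looser cell filters, other definitions of cycling cells, equal cluster shares, the mean of each cell's CPM, and leaving out doubtful clusters.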

Additional observations from a re-analysis of the deposited data

Results flagged for a closer look

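The summed level of the 10 enzymes in all cells lay on opposite sides of WT in different gates. The I173A to WT ratio was 1.07 in the CD4 gate, against 0.743 in the CD8 gate and 0.914 in the DP gate, and the difference between gates was not tested, since each genotype is 1 sample per gate. The CD4 interval started at 1.01, and the spread between mice was not measured.

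Cells with hashtag 5, which no comparison above used, held the enzymes at levels above WT in some sets. The hashtag 5 to WT ratio of the sum was 1.06 in all cells of the CD4 gate, 1.07 in cycling cells of the CD8 gate and 1.11 in noncycling cells of the DP gate. In noncycling cells it was 1.41 for Tm7sf2 and 1.18 for Sc5d in the CD4 gate, and 1.17 for Dhcr7 in the DP gate. These stood out because the counting interval of the ratio lay above 1. Other sets lay lower. In the CD8 gate the sum was at 0.972 (0.923 to 1.02) in all cells and 0.945 (0.878 to 1.02) in noncycling cells. In its cycling clusters the sum was at 1.15 (1.07 to 1.24) with rearranging DP markers and 0.902 (0.735 to 1.11) without them. Dhcr7 was at 0.575 (0.356 to 0.911) in those without them. No genotype can be given to the hashtag 5 cells.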

How the results depend on the processing

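No paired analysis was possible because each genotype is 1 sample in each gate and the labels give no replicate numbers. Over the alternatives the ratio of the summed enzymes ran from 1.04 to 1.07 in all cells of the CD4 gate, 0.727 to 0.885 in the CD8 gate and 0.864 to 0.961 in the DP gate. It ran from 0.488 to 1.06 in cycling cells of the CD8 gate, 0.725 to 0.792 in those of the DP gate and 0.758 to 0.914 in those of the CD4 gate, and in noncycling cells from 1.05 to 1.09, 0.967 to 0.985 and 1.01 to 1.07 in the CD4, CD8 and DP gates. In all cells of the CD8 gate the ratio was 0.808 with equal cluster shares and 0.885 as the mean of each cell's CPM. In cycling cells of the CD8 gate it was 0.624 with the S phase clusters counted as cycling, 0.664 as the mean of each cell's CPM, and, in alternatives chosen after seeing the data, 0.488 in clusters with rearranging DP markers and 1.06 in clusters without them. In those without, Fdft1 (1.04), Nsdhl (1.43), Tm7sf2 (1.28) and Hsd17b7 (4.28) also changed side; the sets hold different cells by construction. Msmo1 in the few cycling cells of the CD4 gate came to 1.07 with S phase clusters added; the cause was not tested. Of the counts past the fold, that of the CD4 gate was 1 with no minimum level in all and in noncycling cells, against 0; the CD8 gate had 0 by the mean of each cell's CPM, against 4, where Sqle, at 0.334, kept the fold but fell under the minimum, and 1 in cycling clusters without DP markers, against 6; the DP gate had 1 with equal cluster shares, against 3. In noncycling DP cells the count was 0, against 1, at 1.5-fold, with TMM or median-of-ratios scaling, with cycling cells set by their share of cell cycle UMIs, with equal cluster shares, with the stricter hashtag rule, without clusters 15 and 7, and without clusters of other cell types and low UMIs. Scaling moved the median of all genes by at most 0.08 on the log2 scale. The looser cell filter was run for all cells only, since clusters were not rebuilt. Leaving out clusters 15 and 7 and the split of cycling clusters were chosen after seeing the data. Depth limits Lss, Tm7sf2, Hsd17b7 and, outside cycling cells, Sqle, which were at 8 CPM or less in most sets.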

Other observations

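Hashtag 5 marked 2829, 2745 and 2765 cells of the CD4, CD8 and DP gates and has no genotype in the labels. Cycling cells made up 14.4% of its CD8 gate and 11.8% of its DP gate. In cycling cells of the CD8 gate the 10 enzymes summed to 222 CPM in hashtag 5 cells, against 207 CPM in WT cells, a ratio of 1.07 (1.00 to 1.15). Sqle had 29.3 CPM in hashtag 5 cells, against 29.4 CPM in WT cells, a ratio of 0.998 (0.818 to 1.22), and Cyp51 had 39.7 CPM in hashtag 5 cells, against 31.1 CPM in WT cells, a ratio of 1.28 (1.07 to 1.53). In cycling cells of the DP gate the sum was 220.3 CPM in hashtag 5 cells, against 206 CPM in WT cells, a ratio of 1.07 (0.966 to 1.19). Clusters 9, 13 and 15 held 116, 112 and 20 hashtag 5 cells of the CD8 gate, and clusters 11 and 19 held 114 and 32. These values are given as those of unassigned cells, with no comparison to I173A.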
